A study of Mus musculus with 4 samples.

Results

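The killer cell lectin-like receptors are the gene family whose symbols begin with Klr. They were taken as every non-control probe whose gene name in the files starts with those letters, which gave 51 probes (60 spots) of 55681 probes on the array. Of these, 49 probes stood for 31 receptor genes. The other 2 carried the name Klraq1, now Ppp1r21, a coiled coil protein gene on chromosome 17 that is no lectin-like receptor. By subfamily there were 29 Klra probes of 17 genes, 7 Klrb probes of 4 genes, 6 Klrc probes of 3 genes, 2 each for Klrg and Klri, and 1 each for Klrd, Klre and Klrk.

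The family was measured in cultured CD4+ T cells of mice by one-colour Agilent arrays, 2 of miR155_KO cells, which lack the microRNA miR-155, and 2 of WT cells. Cells of both genotypes were grown under anti-CD3e and anti-CD28 stimulation plus TGFb and IL-6, conditions that drive T helper 17 differentiation. Both were then sorted as CD4+ cells positive for a red fluorescent reporter (RFP) of IL-17F, so the wild-type cells carried the reporter too. The design text calls the arrays biological replicates, but the labels name no animal, culture or day for any array. The p-values thus measure only how far these samples spread, which may be technical. Strain, age and the make of the deletion are not stated in the labels used here, and the deletion was not checked with a probe of its own.

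Values below are log2 processed signals minus the 75th percentile of the same array, and every difference is knockout minus wild type on that log2 scale. A level of one probe cannot be set against that of another. The family was selected on the measured knockout and wild-type signals of these same arrays, so its differences are a description and carry no test of their own. In sorted pools, fewer cells that express a gene and less RNA per cell cannot be told apart.

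Most of these receptors are C-type lectin-like proteins of natural killer (NK) cells, and subsets of T cells carry some of them. The Klra genes encode the Ly49 receptors, many of which bind MHC class I, while Klrc proteins (NKG2) pair with CD94, the product of Klrd1, and bind the non-classical class I molecule Qa-1. Inhibitory members carry a cytoplasmic motif, the ITIM, that recruits phosphatases such as SHP-1. Activating members lack it and signal through adaptors such as DAP12 (Tyrobp) or DAP10 (Hcst). miR-155 acts by pairing of its seed with messenger RNAs, and its mature sequence is shown because the knockout removes it (RefSeq, GRCm38.p6, chromosome 16, 84714143 to 84714165, plus strand), with the seed, bases 2 to 8, in capitals.
miR-155-5p: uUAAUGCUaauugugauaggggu

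The Klra genes are close copies of each other, and the probe letters show how close. The Klra probes below align with 1 of the Klra7 probes (chromosome 6, 130168899 to 130168958, minus strand, mm9, as the files give it). They are shown because their signals cannot be assigned to 1 gene with certainty, and capitals mark bases that differ from the Klra7 probe.
Klra7 probe: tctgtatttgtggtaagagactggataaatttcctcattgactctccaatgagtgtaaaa
Klra23 probe: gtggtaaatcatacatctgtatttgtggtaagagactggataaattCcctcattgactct
Klra23 probe, the second: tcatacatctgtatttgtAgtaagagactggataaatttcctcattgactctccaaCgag
Klra4 probe: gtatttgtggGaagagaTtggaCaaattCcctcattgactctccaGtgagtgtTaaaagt
Klra15 probe: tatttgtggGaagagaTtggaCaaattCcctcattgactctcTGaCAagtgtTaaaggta
Klra6 probe: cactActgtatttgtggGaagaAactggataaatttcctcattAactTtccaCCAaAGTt

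Where they overlap the Klra7 probe, the Klra23 probes differed from it by 1 of 45 and by 2 of 53 bases. The Klra4 probe differed by 6 of 57 bases, the Klra15 probe by 9 of 56 and the Klra6 probe by 11 of 56. Of the 190 pairs among the 20 Klra probes tested, 6 pairs, holding 10 of the probes, shared a run of at least 20 bases. The median longest shared run was 6 bases. No pair of a Klra and another Klr probe shared a run of more than 10 bases. Probes were compared with each other and not with transcripts, so which transcripts a probe can bind was not tested. The 17 Klra names of the array follow several mouse strains: 12 matched a symbol of RefSeq's C57BL/6J annotation (GRCm38.p6), 2 a synonym and 3 neither. Klra values are therefore reported under the array's names as uncertain between paralogs and alleles.

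Probes of the other receptors carry unrelated letters. Those of Klrc1 (129628315 to 129628374, minus strand) and Klre1 (129534195 to 129534254, plus strand), both on mm9 chromosome 6, are shown beside Klra9 (130139716 to 130139775, minus strand) as examples of the receptors that stood at or under the wild-type level and of 1 that stood above it.
Klra9 probe: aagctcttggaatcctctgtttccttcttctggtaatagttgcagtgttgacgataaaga
Klrc1 probe: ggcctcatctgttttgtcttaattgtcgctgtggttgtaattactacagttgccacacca
Klre1 probe: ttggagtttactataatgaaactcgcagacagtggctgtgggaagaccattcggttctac

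To be tested, a probe had to be well above background on both knockout or both wild-type arrays, which 33 receptor probes of 22 genes met. A probe could meet it through the knockout arrays alone, and 2 did so with 0 wild-type arrays well above background (Klra12 and 1 of the Klra16 probes). Klra2, another Klra16 probe and Klrb1f also met it only through the knockout arrays, with 1 wild-type array well above background. On all 4 arrays 28 probes met it. limma (lmFit and eBayes, Benjamini-Hochberg adjustment) over the 37221 tested probes of the array called 0 probes at an adjusted p under 0.05, and the smallest adjusted p was 0.390. At an unadjusted p under 0.05, 6.80% of all tested probes were higher in the knockout and 3.32% lower, 10.1% in either direction. An exact permutation test of 1 probe with 2 arrays against 2 has 0.333 as its smallest two-sided p.

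The family split by subfamily. All 20 tested Klra probes had a higher mean in the knockout, as 55.2% of all tested probes did, with a median difference of 1.64 (3.12-fold) and a range of 0.40 to 1.85. For all 20 both knockout arrays lay above both wild-type arrays, as they did for 26.2% of all tested probes, and 18 were at least 2-fold higher, against 2.14% of all tested probes. With normexp background correction, 10 of the 20 were at least 2-fold higher and the median was 0.96 (1.95-fold). At the unadjusted p, 19 of the 20 were higher and 0 were at the adjusted p. The 10 probes of Klrc, Klrd, Klre, Klri and Klrk had a median of -0.08 and a range of -0.54 to 0.09, and 0 of them were higher at the unadjusted p while 1, Klre1, was lower (3.32% of all tested probes were). The count of lower receptor probes was 0 to 3 under the alternatives tried, with 3 and a group median of -0.24 under median scaling, which shifted all probes down. The median over all tested probes was 0.04. These shares describe members chosen for this contrast, and nothing is read from their distance to the background. Over the 16 Klra probes well above background on all 4 arrays the median was 1.64 as well.

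Among the inhibitory Ly49 genes, Klra7 (Ly49G) had 2 tested probes. The probe printed above read 0.80 and 0.86 on the knockout arrays, against -0.37 and -1.32 on the wild-type arrays, a difference of 1.67 ± 0.35 (SE). Its other tested probe read -0.56 and -0.14 in the knockout and -1.57 and -2.33 in wild type, a difference of 1.60 ± 0.32 (SE). The knockout arrays were close together for both, the wild-type arrays were further apart with array 2 the dimmest, and the groups did not overlap. The remaining Klra7 probe was well above background only on knockout array 1.

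Klra22 (Ly49V), a name that RefSeq lists only as a synonym, had 1 tested probe. It read 1.98 and 2.08 in the knockout and 0.80 and -0.15 in wild type, a difference of 1.70 ± 0.36 (SE). Another Klra22 probe, placed next to it (129922235 to 129922294 of mm9 chromosome 6), was well above background on no array. Klra1 (Ly49A) read -2.35 and -2.14 in the knockout and -3.15 and -3.85 in wild type, a difference of 1.26 ± 0.28 (SE). Klra9 (Ly49I) read -0.99 and -1.19 in the knockout and -2.20 and -2.34 in wild type, a difference of 1.18 ± 0.15 (SE). None of the 3 tested probes of these genes had overlapping groups, and the wild-type arrays of Klra9 were the closest to each other among them.

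Klra15 (Ly49O), a gene of strains other than C57BL/6, had 2 probes. The one printed above read -3.48 and -3.25 in the knockout and -4.78 and -5.29 in wild type, a difference of 1.67 ± 0.23 (SE), and the files place it nowhere in the genome. The other (129922274 to 129922333 of mm9 chromosome 6) read -2.31 and -2.14 in the knockout and -3.24 and -4.05 in wild type, a difference of 1.42 ± 0.31 (SE). Both probes had both knockout arrays above both wild-type arrays. The position of the placed probe overlaps that of the Klra22 probe that was well above background on no array. Values under the names Klra15 and Klra22 thus cannot be taken as readings of separate genes.

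Klra2 (Ly49B), an inhibitory gene set apart from the other Klra genes on chromosome 6 (probe at 131169286 to 131169345, mm9), had the smallest difference among the tested Klra probes. It read -4.77 and -4.78 in the knockout and -4.88 and -5.46 in wild type, a difference of 0.40 ± 0.24 (SE), with an unadjusted limma p of 0.164. Knockout arrays lay only just above wild-type array 1, and only 1 of the 2 wild-type arrays was well above background.

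Klra5 (Ly49E), an inhibitory receptor, was read by 2 overlapping probes that share 44 bases. One was spotted 10 times on each array. Its kept spots had a median of -3.0 (range -3.09 to -2.80, 10 spots) and -3.31 (-3.56 to -3.06, 9 spots) on the knockout arrays, against -4.15 (-4.50 to -3.88, 9 spots) and -3.91 (-4.37 to -3.55, 10 spots) on the wild-type arrays. The lowest knockout spot, at -3.56, lay just under the highest wild-type spot, at -3.55, and spots of 1 array are repeats of 1 sample. The difference of the array means was 0.86 ± 0.20 (SE). The second Klra5 probe read -3.24 and -3.75 in the knockout and -4.77 and -5.11 in wild type, a difference of 1.45 ± 0.25 (SE).

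Among the activating Ly49 genes, Klra8 (Ly49H), which in C57BL/6 mice recognises a protein of mouse cytomegalovirus, had 2 tested probes. One (130065310 to 130065369 of mm9 chromosome 6) read -1.18 and -1.36 in the knockout and -2.73 and -3.13 in wild type, a difference of 1.66 ± 0.20 (SE). The other, for which the files also list Klra9 transcripts, read -1.20 and -1.50 in the knockout and -2.91 and -3.48 in wild type, a difference of 1.85 ± 0.26 (SE). Groups were well separated for both probes. Another Klra8 probe was well above background on no array.

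Klra4 (Ly49D), which pairs with DAP12, read -2.07 and -1.92 in the knockout and -3.21 and -4.04 in wild type, a difference of 1.62 ± 0.32 (SE). Klra23 (Ly49W) had 3 probes, all with non-overlapping groups and with differences of 1.69 ± 0.38, 1.70 ± 0.39 and 1.82 ± 0.33 (SE). The largest of these came from the first Klra23 probe printed above, which read 0.12 and 0.35 in the knockout and -1.17 and -2.01 in wild type, and whose listed transcripts include the pseudogene Klra13-ps.

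Klra12 (Ly49L), an activating gene, was well above background on the knockout arrays only. It read -3.19 and -4.50 in the knockout and -5.79 and -5.58 in wild type, where it was not well above background. In the main processing the mean knockout signal was at least 3.36-fold above a wild-type floor. That floor was the lowest signal well above background on each wild-type array, or the probe's own where that was higher. The bound does not hold under other processing: with normexp background correction the Klra12 difference was 0.74. The fit gave the probe an adjusted p of 0.428. The knockout arrays were further apart here than for any other tested Klra probe.

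Klra16 (Ly49P), also activating, had 3 tested probes of very different brightness. The brightest read 0.05 and 0.38 in the knockout and -0.92 and -1.29 in wild type, a difference of 1.32 ± 0.21 (SE). The second read -3.65 and -3.71 in the knockout and -4.91 and -5.98 in wild type, with 1 of the 2 wild-type arrays well above background, a difference of 1.76 ± 0.39 (SE). The dimmest, not well above background in wild type, was at least 1.77-fold higher in the knockout by the same bound, with an adjusted limma p of 0.397. This too holds for the main processing only, and with normexp background correction its difference was 0.49.

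Under the array's names, activating and inhibitory members of the Klra subfamily were both higher. The printed Klra23 probes, classed as activating, differ from the inhibitory Klra7 probe by 1 of 45 and 2 of 53 overlapping bases. The class of a Klra signal is therefore as uncertain as its gene, and these probes cannot separate the classes with certainty. The 10 activating Klra probes had a median of 1.69 (range 1.21 to 1.85) and the 10 inhibitory ones a median of 1.43 (range 0.40 to 1.70), so the ranges overlapped. Outside Klra the 7 activating probes had a median of -0.03 and the 3 inhibitory ones a median of 0.03. Over the whole family, 17 activating probes had a median of 1.62 and 13 inhibitory ones a median of 1.42. With 1 probe a gene these were 1.47 and 1.26.

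Wild-type arrays differed from each other in the Klra genes. Array 1 was above array 2 for 18 of the 20 Klra probes, with a median gap of 0.64, against 39.1% of all tested probes. The gap between the knockout arrays had a median of -0.08. Without wild-type array 2 the Klra median was 1.22, and without wild-type array 1 it was 1.90. No sign turned for any Klra or Klrg1 probe under any alternative processing tried, over 303 values between 0.11 and 2.49.

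Klrg1, the inhibitory receptor for cadherins, lies outside the Klra block (probe at 122220629 to 122220688 of mm9 chromosome 6). It read -2.62 and -2.92 in the knockout and -4.51 and -4.93 in wild type. Both genotypes were tight and far apart, with a difference of 1.95 ± 0.22 (SE), 3.86-fold, and an adjusted p of 0.390. With normexp background correction the Klrg1 difference was 0.91, 1.88-fold. Klrg2, whose ligand and signalling are not settled, read -2.12 and -2.63 in the knockout and -2.70 and -2.74 in wild type, a difference of 0.34 ± 0.22 (SE), with knockout array 2 close to the wild-type arrays.

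The CD94/NKG2 genes gave another picture. Klrd1, the CD94 partner chain, read 3.39 and 3.77 in the knockout and 3.90 and 4.2 in wild type, a difference of -0.47 ± 0.21 (SE). Both knockout arrays were below both wild-type arrays, as for 19.8% of all tested probes, and the nearest arrays of the 2 genotypes were closer than those within a genotype.

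Klrc1 (NKG2A), the inhibitory partner of CD94, had 2 probes. The brighter read 2.03 and 2.03 in the knockout and 2.03 and 2.04 in wild type, a difference of -0.01 ± 0.12 (SE). The other, printed above, read -0.76 and -0.99 in the knockout and -0.99 and -0.83 in wild type, a difference of 0.03 ± 0.16 (SE). The genotypes overlapped for the printed probe, and all 4 arrays were nearly equal for the brighter one.

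The activating partners were similar. Klrc2 (NKG2C) read -2.80 and -3.17 in the knockout and -3.29 and -2.85 in wild type, a difference of 0.09 ± 0.23 (SE). Klrc3 (NKG2E) had 3 probes with differences of -0.33 ± 0.14, -0.14 ± 0.14 and -0.03 ± 0.13 (SE). Only the first of these had groups that did not overlap, and 1 of the others lists transcripts of Klrc1 and Klrc2 too.

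Klrk1 (NKG2D), the activating receptor for stress-induced ligands of the RAE-1 and H60 families, read -1.53 and -1.47 in the knockout and -1.33 and -1.41 in wild type, a difference of -0.13 ± 0.13 (SE). The knockout arrays were both below the wild-type arrays by small gaps. Klre1, which forms dimers with the Klri proteins, read 1.1 and 1.43 in the knockout and 1.88 and 1.73 in wild type. Its difference of -0.54 ± 0.18 (SE) was the lowest of the tested receptor probes, with an unadjusted limma p of 0.0352 and an adjusted p of 0.477. Klri2, an activating partner of Klre1, read -2.26 and -2.40 in the knockout and -2.43 and -2.33 in wild type, a difference of 0.05 ± 0.14 (SE), with overlapping groups, and its inhibitory counterpart Klri1 was not well above background on any array.

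The NKR-P1 genes of the Klrb subfamily were mostly dim. Of 7 probes only that of Klrb1f (NKR-P1F), an activating receptor, was tested. It read -1.34 and -1.09 in the knockout and -0.94 and -7.42 in wild type, so its difference of 2.96 ± 2.24 (SE) rests on wild-type array 2, and without that array it had the opposite sign. The probe lay in a corner block at the right edge of the arrays. Klrb1c, the gene of NK1.1, was well above background on knockout array 1 and on wild-type array 1 by 1 probe. Of the Klrb1b (NKR-P1B) probes, 2 were well above background on knockout array 1 only, and Klrb1a (NKR-P1A) on no array.

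In all, 16 receptor probes were not tested and 12 were well above background on no array. Untested genes were Klra6, Klra10, Klra17, Klra19, Klra33, Klrb1a, Klrb1b, Klrb1c and Klri1. Klra6 (Ly49F), whose probe is printed above, read -5.58 and -5.78 in the knockout and -8.10 and -7.72 in wild type. It was well above background on no array, so no fold is given. The 2 Klraq1 probes had differences of -0.11 ± 0.21 and 0.03 ± 0.27 (SE).

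Most tested Klra probes and those of Klre1 to Klri2 lay in separate blocks of the chromosome, so position and subfamily cannot be told apart. Of the 33 tested receptor probes 30 had a given position. On mm9 chromosome 6, the 10 tested probes of Klre1 to Klri2 lay within 145 kb (129534195 to 129679195), with differences of -0.54 to 0.09 and the median of -0.08. The 16 tested Klra probes of the next block lay within 499 kb (129815690 to 130314256), with differences of 0.86 to 1.85 and a median of 1.64. That block held 5 other tested probes, without a gene symbol, with a median of 0.50. Of these, 2 were higher at the unadjusted p, both well above background on the knockout arrays alone, so that they entered the test through the genotype where they were high and nothing is read from them. Of 12 tested probes of named genes other than Klr from Klrb1a to Klra2, 3 were higher at the unadjusted p, against 6.80% of all tested probes, and the median of the 12 was 0.10. The 3 were Clec7a, the beta-glucan receptor dectin-1, at 1.48 ± 0.46, Clec2i at 0.59 ± 0.16 and 2310001H17Rik at 0.40 ± 0.14 (SE). Olr1, a scavenger receptor gene, had the largest difference of the 12 at 2.0 ± 0.81 (SE), with an unadjusted limma p of 0.0667, and its wild-type arrays were far apart. Cd69, an early activation marker of lymphocytes in the same stretch, had -0.40 ± 0.20 (SE).

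Promoters of some Klra genes share sequence too, in genes with higher values and in genes that were well above background on no array. The run below was found by comparing the Klra promoters (RefSeq, GRCm38.p6, chromosome 6, minus strand), and lies upstream of the annotated starts; capitals mark bases that differ from Klra8. It spans 130129944 to 130129984 for Klra8, 130067316 to 130067356 for Klra4, 130027039 to 130027079 for Klra6 and 129913280 to 129913320 for Klra5.
Klra8 promoter: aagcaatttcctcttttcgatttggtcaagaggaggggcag
Klra4 promoter: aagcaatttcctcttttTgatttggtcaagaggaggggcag
Klra6 promoter: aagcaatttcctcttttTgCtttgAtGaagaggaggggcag
Klra5 promoter: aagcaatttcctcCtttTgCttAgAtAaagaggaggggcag

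The first 12 letters of this run, AAGCAATTTCCT, were chosen as a run held by the most Klra genes. Their high share among Klra promoters was thus fixed in advance, and nothing is read from it. On either strand they were in 8 of 13 promoters of 11 Klra genes and in 0 of 15 promoters of other Klr genes. Of all 32851 promoters of the same length, the Klra ones included, 12 held them (0.0365%), and 4 of those 12 were not of Klra genes. Exact matches are in promoters of Klra4, Klra5, Klra8 and Klra9, but also in those of Klra6 and Klra17, which were well above background on no array. None is in those of Klra1 and Klra7, which had differences of 1.26 and of 1.60 and 1.67. However, 1 Klra7 promoter held a near copy of the longer run. It matched Klra8 at 34 of 41 bases, as many as Klra17 did. The other Klra7 promoter and that of Klra1 matched at 19. A link of the run to the values was not tested. The core TGTGGT of RUNX factors, which regulate lymphocyte genes, was in 1 of 13 Klra promoters, 8 of 15 other Klr promoters and 16.8% of all promoters. The core CTTTGA of TCF and LEF factors was in 3 of 13, 5 of 15 and 16%, and the T-box core GGTGTGA in 1 of 13, 0 of 15 and 3.98%. All were searched on either strand, occurrences of the RUNX and T-box cores can overlap, and a match is a description of this window only.

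The adaptors that carry activating signals were measured beside the receptors. Of 16 tested genes for adaptors and signalling, 3 were higher at the unadjusted p (6.80% of all tested probes were), 0 lower and 0 at the adjusted p, with a list median of 0.18 against 0.04 over all tested probes. Fcer1g, the FceRI gamma chain, read 0.09 and 0.48 in the knockout and -0.50 and -0.80 in wild type, a difference of 0.94 ± 0.21 (SE). The other 2 were Lat2, a membrane scaffold, at 1.12 ± 0.18, and the kinase gene Syk at 0.50 ± 0.14 (SE). Tyrobp, the DAP12 gene, had 0.19 ± 0.44 and Hcst, the DAP10 gene, 0.18 ± 0.13 (SE). Both wild-type arrays of Tyrobp were further from each other than the genotypes were, and for Lat the spot of wild-type array 2 was dropped as an outlier.

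Of the 3 phosphatase genes that ITIMs recruit, Inpp5d (SHIP-1), a known target of miR-155, had 0.49 ± 0.14 (SE) and was higher at the unadjusted p. Ptpn6 (SHP-1) had -0.15 ± 0.15 and Ptpn11 (SHP-2) -0.06 ± 0.17 (SE). Of the 13 tested ligand genes 1 was higher at the unadjusted p, Clec2i, whose product binds NKR-P1 receptors, and 0 were lower, against 6.80% and 3.32% of all tested probes, with a list median of 0.24. Class I genes that Ly49 and NKG2 receptors bind had small differences, 0.07 ± 0.12 for H2-K1, 0.29 ± 0.13 for H2-D1 and 0.14 ± 0.13 (SE) for H2-T23, which encodes Qa-1.

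Of 13 transcription factor genes that act in killer cells, 6 were higher at the unadjusted p and 0 lower, against 6.80% and 3.32% of all tested probes, with a list median of 0.40 against 0.04. They were Zbtb16 (PLZF) at 1.45 ± 0.42, Gata3 at 1.25 ± 0.40, Eomes at 1.05 ± 0.30, Prdm1 (Blimp-1) at 1.02 ± 0.19, Ikzf2 (Helios) at 0.85 ± 0.27 and Nfil3 at 0.40 ± 0.14 (SE). Tbx21, the T-bet gene, had -0.52 ± 0.28, Tox -0.36 ± 0.20 and Runx3 -0.26 ± 0.14 (SE). The Tbx21 probe lay in a corner block and read 2.10 and 2.75 in the knockout and 2.78 and 3.10 in wild type. None of the 13 passed the adjusted threshold.

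Some markers of other cells that a sort could hold had higher values in the knockout and others did not, and their part in the result was not tested. The counts that follow are at the unadjusted p, at which 6.80% of all tested probes were higher and 3.32% lower, and 0 markers passed the adjusted threshold. Of 11 tested NK cell markers, 5 were higher and 0 lower, with a median of 0.71 against 0.04 over all tested probes: Prf1 (perforin) at 1.23 ± 0.21, Gzma (granzyme A) at 1.22 ± 0.36, Eomes, Cd160 at 0.96 ± 0.28 and Itga2 (CD49b) at 0.71 ± 0.17 (SE). Fcgr3 (CD16), whose probe lay in a corner block, had -0.57 ± 0.88 (SE). It read -5.13 and -2.85 in the knockout and -2.89 and -3.96 in wild type. The summed signal of the 13 NK markers on the array, each value taken back from the log2 scale, was 428 and 429 in the knockout and 282 and 176 in wild type. Such a sum weights each probe by its own brightness, and with Gzma left out it was 75.8 and 73.7 in the knockout and 68.9 and 68.4 in wild type. The NK-defining gene Ncr1 (NKp46) was not well above background on any array, and Klrb1c was so on 1 array of each genotype.

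Of 6 CD8 T cell markers 2 were higher, Cd8a at 1.30 ± 0.17 (SE) and Eomes, while Cd8b1 had -0.13 ± 0.24 (SE). That list summed to 6.65 and 4.81 in the knockout and 3.70 and 4.50 in wild type. With its brightest gene, Ccl5, left out it was 2.40 and 2.19 in the knockout and 1.75 and 2.23 in wild type, so the genotypes overlapped. Of 17 listed markers of gamma-delta and NKT cells only 6 matched a gene name of the array. None of the listed T cell receptor gamma and delta genes did, so the list is no measure of these cells. Of the 6, all tested, 2 were higher, Zbtb16 and Cd163l1 at 1.13 ± 0.36 (SE). The 6 summed to 4.11 and 3.27 in the knockout and 2.88 and 2.52 in wild type. Of 7 myeloid markers 1 was higher, Cd74, with sums of 25.0 and 24.5 in the knockout and 22.3 and 21.7 in wild type. Of 10 genes listed as CD4 T cell markers 2 were lower. They were Il17f, whose reporter was used for the sort, at -2.01 ± 0.19 and Il17a at -3.17 ± 0.53 (SE). The other 8, Cd4 at -0.16 ± 0.16 and Cd3e at -0.06 ± 0.15 (SE) among them, had no call. The 9 genes of this list with a value on all 4 arrays, Lat left out, summed to 466 and 490 in the knockout and 503 and 545 in wild type.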

How the data were processed

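The authors deposited 1 Agilent Feature Extraction 10.5.1.1 output per array. Its processed signal is a linear intensity, background-subtracted and spatially detrended, per the file headers. The fitted detrending surface is a ratio, per the file headers, and knockout array 1 had it applied at 0.799% of bright spots, against 100% on the others. The authors also deposited a log2 matrix, and how it was made is not stated in the labels. Each of its columns equalled the log2 processed signal plus 1 constant within 0.001, with a median of 5.54 in all 4 columns, so its scale, centring and direction are settled. The deposited outputs held 59305 non-control spots an array, of which 63.5% to 69.8% were well above background and 0 saturated. The number of arrays limits the precision.

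Control spots and outlier flags were dropped, spots of a probe averaged, and log2 signals shifted by the 75th percentile (pandas 2.3.3, Python 3.11.15). limma 3.58.1 in R 4.3.3 compared 2 knockout with 2 wild-type arrays over probes well above background on both knockout or both wild-type arrays, after tests on simulated data. Residual degrees of freedom were 2 and prior ones 2.19. Every Klr probe was accounted for, and tested ones were named. The members, classes and gene lists were chosen with earlier results of these data known. Alternatives changed the scaling, background correction, filter, detrending, corner probes, variance model, replicate block, probes per gene and single arrays. Both knockout arrays lay in 1 slide row and both wild-type arrays in another, which cannot be told apart from genotype. Probe positions are the files' own, on mm9, and exon annotation was not used.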

Additional observations from a re-analysis of the deposited data

How the results depend on the processing

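Over all tested probes, the unadjusted p under 0.05 gave 2532 higher in the knockout and 1234 lower (67.2% higher). Median scaling and the authors' deposited log2 matrix gave 1292 and 3397 (27.6% higher), quantile scaling 1947 and 2065 (48.5%), and normexp background 7466 and 1712 (81.3%). The replicate block gave 2027 and 813, 0 adjusted calls and 20 higher Klr probes. Same-numbered arrays did not deviate together (correlation -0.0037 over probes). That value rests on a single contrast within each genotype, so it cannot decide whether the arrays are paired, and the labels do not say. Median scaling moved the median of all probes to -0.12. Without single arrays (the lone array being assumed to vary like the other genotype) adjusted calls ranged from 0 to 53, higher probes from 1737 to 3331 and lower ones from 597 to 1739. The 53 came without WT replicate 1 and held 1 Klr probe, Klrb1f.

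Among Klr probes, 20 were higher at the unadjusted p, 12 with 1 probe a gene (of 22 genes), and 19 to 20 without single arrays. Lower ones numbered 1, 3 with median scaling and the deposited matrix (Klre1, Klrd1 and Klrc3), and 0 with no filter, with the replicate block and without WT replicate 1, WT replicate 2 or miR155_KO replicate 1. The median of the Klrc, Klrd, Klre, Klri and Klrk probes was between -0.24 and -0.02. The inhibitory median of 1.42 became 0.79 with normexp and 1.05 with no filter, and 1.11 to 1.62 without single arrays. The activating median of 1.62 became 0.76 with normexp, 1.32 with no filter and 1.32 with probes well above background on all 4 arrays, and 1.14 to 1.73 without single arrays. The Klra median of 1.64 became 1.48 with median scaling, 1.54 with quantile scaling and 0.96 with normexp, and 1.22 without WT replicate 2. Klra and Klrg1 probes kept their sign throughout (303 values). Of 478 values over all tested receptor probes 22 turned sign, those of Klrc1, Klrc2, Klrc3 and Klri2, all near 0, and of Klrb1f without WT replicate 2. The causes were not tested. Signal over background limits the 16 untested probes, Klrb and Klra6 among them.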
